A study of Mus musculus with 26 samples.

Results

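Naive T cells are held in a quiet, long-lived state by a small group of transcription factors, and 6 of these were examined here together with the 2 Id genes most used by T cells. The genes were Lef1, Tcf7, Satb1, Bach2, Foxo1, Foxp1, Id2 and Id3. They were taken by symbol from the deposited tables, and all 8 were found among the 25814 genes of every table. Messenger RNA had been sequenced from T cells sorted out of Peyer's patches, the lymphoid follicles of the small intestine, of C57Bl/6 mice.

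There were 26 libraries in 4 groups. For 6 libraries CD4+ T cells were taken on a conventional diet, and for another 6 on an elemental diet, a feed in which free amino acids stand in for protein. A further 14 libraries held T cells of mice on the conventional diet, 7 sorted as CD44+ and 7 as CD44-. CD44 is an adhesion receptor that rises on T cells once they have met antigen. The CD4+ libraries were made from 22 ng of RNA, the CD44 libraries from 1 ng with a low-input kit, so levels were not tested between the pairs. The labels give no genotype beyond the strain, no age, and no statement that the CD44 sorts were gated on CD4. They do not tie replicates to separate animals, so a p-value here measures the spread between libraries, which may be partly technical.

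Each CD44 library held 7180390 to 13378353 exon reads and each CD4+ library 16401589 to 25415205. Intron reads made up 9.39% to 29.0% of gene reads in the CD44 libraries and 3.33% to 4.61% in the CD4+ libraries. Levels are exon CPM (read counts scaled to a common library size, with TMM factors), unless introns are named. Cd44 itself ran from 47.5 to 139 CPM in CD44- and from 89.2 to 362 CPM in CD44+ libraries, an overlap (adjusted p = 0.303, edgeR). Cd4 ran from 38.5 to 482 CPM in CD44- and from 12.5 to 69.6 CPM in CD44+ libraries (adjusted p = 0.095). Cd8a ran from 0 to 80.2 CPM in CD44- and from 0 to 72.6 CPM in CD44+ libraries. Cd8b1 ran from 0.288 to 51.1 and from 0.119 to 93.9 CPM, and neither CD8 chain was called. Alpha-beta T cell core genes were present in all 4 groups, and the 11 genes summed to between 4223 and 16163 CPM.

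Tcf7 encodes TCF-1 and Lef1 encodes LEF1, a pair of HMG-box factors that share a DNA motif, recruit beta-catenin or TLE co-repressors, and keep naive and stem-like memory T cells as they are. TCF-1 also has a part in follicular helper T cells. SATB1 is a chromatin organiser of thymocytes and naive T cells, and BACH2 is a repressor of effector genes. FOXO1, which AKT removes from the nucleus after receptor signals, drives Il7r and Klf2. FOXP1 keeps naive cells quiescent. ID2 and ID3 have no DNA-binding domain and trap the E proteins, basic helix-loop-helix factors that bind the E-box. ID2 is known for effector T cells and innate lymphoid cells, ID3 for naive, memory and follicular cells.

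The genes lie on 6 chromosomes, and coordinates are those of the deposited tables (GRCm38). Lef1 (ENSMUSG00000027985) spans chr3:131110471-131224356 on the + strand and Tcf7 (ENSMUSG00000000782) chr11:52252371-52283014 on the - strand. Satb1 (ENSMUSG00000023927) spans chr17:51736187-51833290 (-) and Bach2 (ENSMUSG00000040270) chr4:32238804-32586108 (+). Foxo1 (ENSMUSG00000044167) spans chr3:52268336-52353221 (+) and Foxp1 (ENSMUSG00000030067) chr6:98925338-99522721 (-). Id2 (ENSMUSG00000020644) spans chr12:25093799-25097140 (-) and Id3 (ENSMUSG00000007872) chr4:136143497-136145755 (+). Deposited exon lengths ran from 1278 bases for Id3 to 12131 for Satb1. RefSeq's Tcf7 gene, in GRCm38.p6, reaches 369 bases further at its 5′ end and 5844 bases further at its 3′ end, and reads there were not in the table's Tcf7 count. Gene counts do not separate the long TCF-1 and LEF1 forms that bind beta-catenin from the short ones.

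In the CD44 comparison Lef1 and Satb1 were the 2 members that passed the test on intron reads, both lower in CD44+ libraries. The 250 bases before their most upstream RefSeq starts (GRCm38.p6) are therefore shown, 5′ to 3′ on the gene's strand, with an E-box in capitals where one occurs. Tcf7 passed the intron test by diet, and its window is not shown. The Lef1 window is chr3:131110047-131110296 (+) and that of Satb1 is chr17:51833291-51833540 (-).
Lef1: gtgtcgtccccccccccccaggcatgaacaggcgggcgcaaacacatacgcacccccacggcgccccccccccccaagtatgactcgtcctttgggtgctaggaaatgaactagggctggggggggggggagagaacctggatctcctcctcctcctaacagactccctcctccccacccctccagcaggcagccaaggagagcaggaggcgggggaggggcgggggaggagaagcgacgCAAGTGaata
Satb1: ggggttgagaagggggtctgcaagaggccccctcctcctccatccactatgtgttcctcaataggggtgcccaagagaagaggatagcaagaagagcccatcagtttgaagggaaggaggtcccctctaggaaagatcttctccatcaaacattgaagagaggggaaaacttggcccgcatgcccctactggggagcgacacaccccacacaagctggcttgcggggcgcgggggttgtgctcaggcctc
The E-box was searched as CANNTG, which reads the same way on both strands, and was found in 66.2% of 32851 RefSeq promoter windows of this length. Lef1 held 1 match and Satb1 held 0. The TCF/LEF core CTTTGA, which 13.8% of the windows hold on either strand, had 0 matches in both. The FOXO core TGTTTA, which 12% hold, also had 0 in both. A match is a run of letters and does not show binding.

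In CD44+ T cells Lef1 fell and Id2 rose, and the 2 groups of libraries did not overlap for either gene. These were 2 of the 8 members, where 0.767% of all 8343 genes tested were called. Groups without overlap were found in 0.755% of all genes tested. The other 6 members were not called on exon reads. Over the 8 genes the median log2 fold change was -0.46, against 0.03 over all genes. The members were chosen with earlier results of these data known, so these contrasts with all genes do not test the set.

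Lef1, an HMG-box factor of naive cells, was lower in every CD44+ library. Its level was 360, 569 and 712 CPM (lowest, median and highest) in CD44- libraries and 34.9, 171 and 311 CPM in CD44+ libraries. The groups did not overlap. The log2 fold change was -1.78 ± 0.39 (SE), or 3.42-fold lower (adjusted p = 0.0353, edgeR quasi-likelihood test). Set against the summed core T cell genes, Lef1 had 22.7 to 72.6 CPM per 1000 core CPM in CD44- and 2.75 to 20.9 in CD44+ libraries, again apart.

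Tcf7, its close relative, had 188, 326 and 731 CPM in CD44- and 85.1, 225 and 270 CPM in CD44+ libraries. All 7 CD44+ libraries lay under the CD44- mean of 365 ± 188 (SD), but the groups overlapped. The log2 fold change of -0.93 ± 0.37 did not pass the test (adjusted p = 0.268, 95% interval -1.70 to -0.16).

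Id2, the E protein inhibitor of effector cells, was higher in every CD44+ library. It had 154, 235 and 508 CPM in CD44- and 524, 649 and 1023 CPM in CD44+ libraries. The lowest CD44+ library was just above the highest CD44- one. The log2 fold change was 1.34 ± 0.30, or 2.53-fold higher (adjusted p = 0.0391). Per 1000 core CPM, Id2 ranged from 9.75 to 45.0 in CD44- and from 37.9 to 68.7 in CD44+ libraries, which overlap. Its intron reads were few (7 to 174 per CD44 library), with a log2 fold change of 0.22 ± 0.78 (adjusted p = 0.972).

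Both exon calls were near the threshold. That of Lef1 was kept without CD44+ replicates 2, 4 or 8 or CD44- replicates 6 or 8, and missed 0.05 without each of the other 9 libraries (adjusted p 0.0507 to 0.0806). That of Id2 was kept without CD44+ replicate 2 or CD44- replicates 6, 7 or 8 and missed it without each of the other 10 (0.0534 to 0.0866). With RLE factors in place of TMM, Lef1 had an adjusted p of 0.059. With the intron share of each library as a covariate, Lef1 was at 0.0836 and Id2 at 0.0821. The sign was the same in all 14 fits for each gene.

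**Figure D1:**
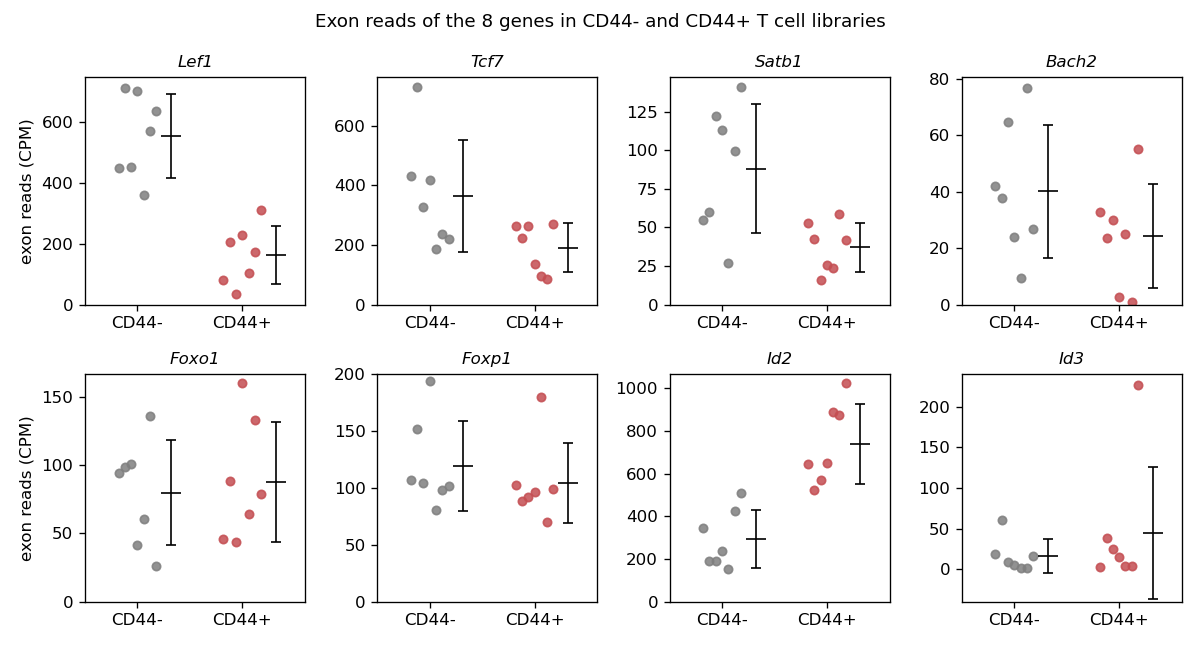
Exon reads (CPM, linear axes) of the 8 genes in CD44- (grey) and CD44+ (red) libraries; each point is 1 library and bars show mean ± SD (n = 7 each). Lef1 points lie apart, from 360 to 712 in CD44- and from 34.9 to 311 in CD44+ libraries, and so do those of Id2, with the other 6 genes overlapping.

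Id3, the other Id gene, was low and uneven in these libraries. It had 1.54, 9.31 and 60.6 CPM in CD44- and 3.08, 15 and 227 CPM in CD44+ libraries. A single CD44+ library, replicate 8, held the 227 CPM, and the next highest held 38.2. The log2 fold change was 1.46 ± 1.0 (adjusted p = 0.593), and it was -0.15 without that library. On 12 to 1574 reads per library, no difference in Id3 was detectable at this depth and spread.

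Satb1 gave the largest change of any member, but in intron reads. Its exon reads were sparse, with 26.7, 99.4 and 141 CPM in CD44- and 15.6, 41.5 and 58.4 CPM in CD44+ libraries. All 7 CD44+ values were under the CD44- mean, the ranges overlapped, and the change of -1.25 ± 0.50 did not pass (adjusted p = 0.268). Intron reads of Satb1, as CPM of all intron reads, had 1263, 2339 and 3850 CPM in CD44- and 311, 530 and 813 CPM in CD44+ libraries. The groups lay apart, with a log2 fold change of -2.09 ± 0.28, or 4.27-fold lower (adjusted p = 0.00623).

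Lef1 introns had 906, 1217 and 2267 CPM in CD44- and 255, 399 and 674 CPM in CD44+ libraries. These ranges did not overlap either, and the log2 fold change was -1.68 ± 0.27 (adjusted p = 0.0263), close to that of its exon reads. Satb1 and Lef1 were 2 of the 4 genes called on introns among 7236 tested, or 0.0553%. Intron ranges lay apart in 0.622% of the genes tested and in 2 of the 8 members. As on exon reads, the way the members were chosen keeps these shares from being a test of the set.

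Most Satb1 gene reads in these libraries were intronic, 75.4% to 96.0% in CD44- and 58.4% to 90.2% in CD44+ libraries. Of its intron reads 58.5% in CD44- and 63.7% in CD44+ libraries matched several places in the genome, against 3.99% and 5.54% for Lef1. With uniquely matched intron reads alone the Satb1 change was -2.30 (adjusted p = 0.0543). With intron reads scaled by the exon library sizes, Satb1 had -1.89 (0.121) and Lef1 -1.66 (0.199), and neither was called. Satb1 kept its call without any 1 library and lost it with the replicate number as a block (adjusted p = 0.0751, edgeR). Lef1 lost it without CD44+ replicates 4, 5 or 6 or CD44- replicate 2 (adjusted p 0.0505 to 0.0575).

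**Figure D2:**
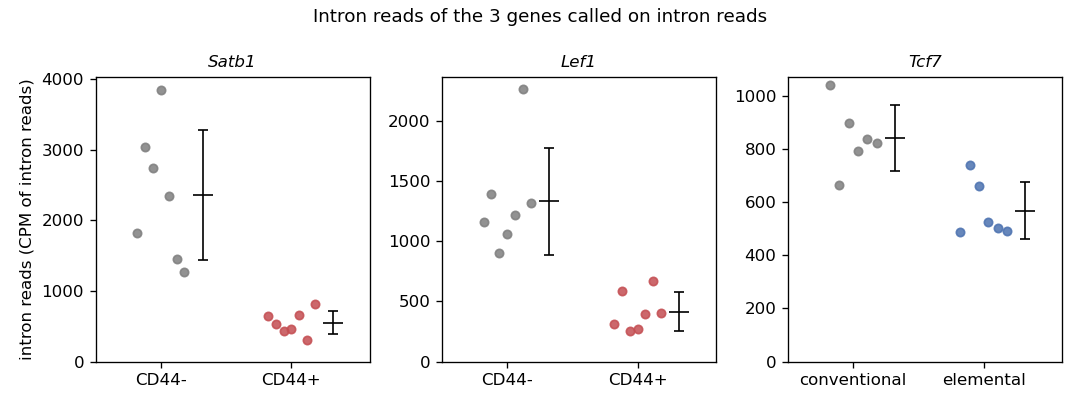
Intron reads (CPM of intron reads, linear axes from 0) by library for the 3 genes called on introns: Satb1 and Lef1 in CD44- (grey) and CD44+ (red) libraries, Tcf7 in conventional (grey) and elemental (blue) libraries, with mean ± SD (n = 7 or 6). Satb1 ran from 1263 to 3850 in CD44- and from 311 to 813 in CD44+ libraries; the Tcf7 ranges overlap.

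Bach2, the repressor of effector genes, had 9.36, 37.7 and 76.9 exon CPM in CD44- and 1.05, 25.1 and 55.2 CPM in CD44+ libraries. Its change was -0.72 ± 0.74 on exons (adjusted p = 0.751) and -1.0 ± 0.27 on introns (0.179, 95% interval -1.58 to -0.41). Foxp1 had 80.2, 104 and 194 CPM in CD44- and 70.3, 96.8 and 180 CPM in CD44+ libraries. That gene's change was -0.20 ± 0.35 on exons (0.868) and -0.73 ± 0.18 on introns (0.141, 95% interval -1.12 to -0.34). Foxo1 had 26, 94.1 and 136 CPM in CD44- and 43.7, 78.8 and 160 CPM in CD44+ libraries, at 0.14 ± 0.46 (0.926). These 3 genes overlapped between the groups on both kinds of read, and DESeq2 called the intron reads of Bach2 and Foxp1, both lower. The 95% interval of the Foxo1 change ran from -0.83 to 1.1, so changes within that range, in either direction, were not excluded.

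**Figure D3:**
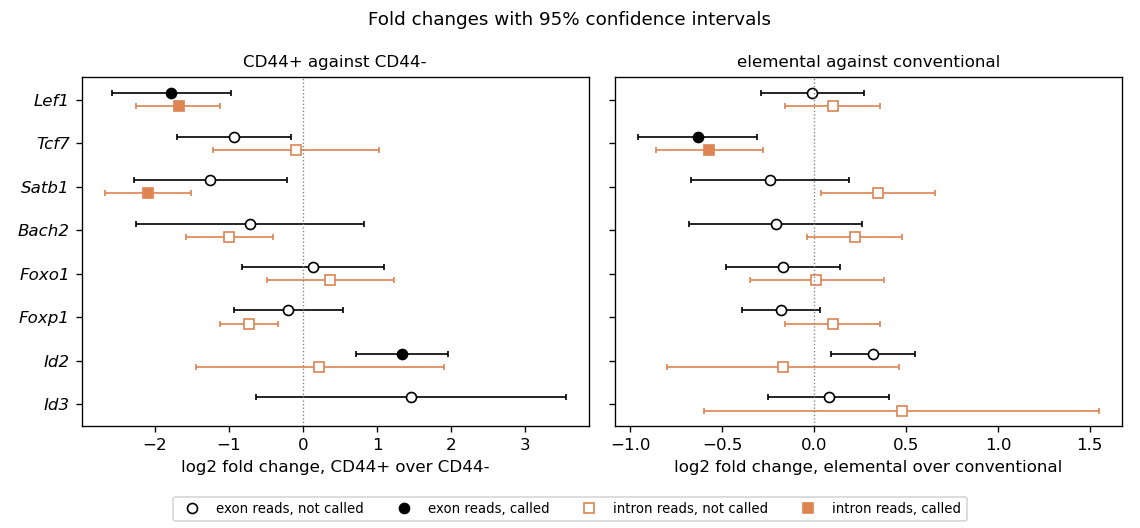
Log2 fold changes with 95% confidence intervals for exon reads (circles) and intron reads (squares) in both comparisons; filled symbols passed the adjusted p threshold of 0.05. In CD44+ cells Lef1 is filled for both kinds of read, at -1.78 and -1.68, and by diet Tcf7 is, at -0.63 and -0.57.

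Genes linked to FOXO factors were lower in 2 of 12 tested members in CD44+ cells, with none higher and a list median of -0.84. S1pr1, the receptor for exit from lymphoid tissue, fell from 249 ± 128 to 80.0 ± 23.4 CPM (-1.64 ± 0.37 on the log2 scale, adjusted p = 0.0433). It was called only without CD44- replicates 1, 4 or 6 and not without each of the other 11 (0.0605 to 0.0913). Of the other naive and quiescence regulators 1 of 15 fell and 0 rose (median -0.09). It was Ets1, a factor of lymphocyte survival, at 1140 ± 802 and 270 ± 119 CPM (-2.08 ± 0.47, 0.0417). Its call held only without CD44- replicates 6, 7 or 8, not without each of the other 11 (0.0612 to 0.098). With RLE factors S1pr1 had 0.0654 and Ets1 0.0551, and with limma-voom 0.0843 and 0.0793. Without a filter they had 0.0682 and 0.0711, and with the intron share 0.0888 and 0.203. With the replicate number as a block (edgeR) they had 0.146 and 0.175. On total gene reads, introns included, the Ets1 change was -0.91 (0.221), less than on exon reads.

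In the remaining lists 0 genes were called. They were 5 paralogs of the members (median -0.05) and 3 E proteins (0.53). Beta-catenin and TLE partners of Tcf7 and Lef1 numbered 10 (-0.06). The PI3K and AKT pathway upstream of Foxo1 had 12 (-0.14) and effector transcription factors 16 (0.66). At an all-gene background of 0.767%, 0 calls in lists of this size say little.

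Plasma cell markers moved with the CD44 sort as well. The 6 genes summed to between 397 and 3135 CPM in CD44- and between 3840 and 8099 CPM in CD44+ libraries, and 2 of 5 tested rose. Of all genes tested 0.767% were called in this comparison. B cell markers (10 genes) summed to between 238 and 1361 CPM in CD44- and between 591 and 1981 in CD44+ libraries, with 0 of 8 called. Germinal centre B cell markers (5 genes) ran from 3.98 to 165 and from 102 to 308 CPM, with 0 of 4 called. The 7 markers of NK cells, innate lymphoid cells and gamma-delta T cells ran from 95.6 to 806 CPM in CD44- and from 784 to 1414 in CD44+ libraries, with 1 of 5 higher. Within that list Ncr1 was at 0 in every CD44+ library, and Sox13 had means of only 0.0321 and 0.0543 CPM. Mean CPM was higher in CD44+ libraries for Nkg7 (361 to 582), Klrb1c (62.0 to 170), Tyrobp (26.8 to 197) and Fcer1g (34.3 to 147). It was lower for Klrd1 (51.9 to 27.5). Core T cell genes summed to between 9807 and 16163 in CD44- and between 11863 and 15220 in CD44+ libraries, with 0 of 11 called. The part of these other cell types in the Lef1, Id2 and Satb1 values was not tested. In bulk RNA, fewer cells of a type and less RNA per cell cannot be told apart.

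Other marker lists had 0 calls in this comparison. Myeloid and dendritic cell markers summed to between 675 and 1096 CPM in CD44- and between 866 and 1252 in CD44+ libraries (8 tested). Epithelial markers ran from 28.4 to 231 and from 29.5 to 150 CPM (1 tested), with Cldn7 at 0 in CD44- and Muc2 at 0 in CD44+ libraries. Most of that sum was Fabp2, which ran from 18 to 230 and from 24.9 to 149 CPM. Epcam reached at most 1.17 CPM in CD44- and 2.91 CPM in CD44+ libraries. Regulatory T cell markers ran from 114 to 395 and from 128 to 495 CPM (3 tested). Foxp3 itself was barely detected, at 0.096 to 1.09 CPM in CD44- and 0.127 to 1.3 CPM in CD44+ libraries. Ikzf2 (medians 143 and 134 CPM) and Ctla4 (105 and 127 CPM) made up most of the sum. Follicular helper markers ran from 229 to 1111 and from 508 to 1029 CPM (5 tested). Handling stress genes ran from 113 to 571 and from 262 to 583 CPM (10 tested).

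By diet, Tcf7 was the 1 member called on exon reads, and it was lower in CD4+ T cells on the elemental diet. It had 386, 626 and 699 CPM in conventional and 277, 360 and 488 CPM in elemental libraries. All 6 elemental libraries lay under the conventional mean of 591 ± 110 (SD), and the groups overlapped only through conventional replicate 6, at 386 CPM. The log2 fold change was -0.63 ± 0.15, or 1.55-fold lower (adjusted p = 0.0115). It was called without any 1 library, with adjusted p between 0.000834 and 0.0295.

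This is 1 of 8 members, or about what the background of 17.4% of 11938 genes called would give, and so is no result about the group of genes. Groups lay apart for 7.16% of all genes on exon reads and for 0 of the 8 members. The median log2 fold change of the members was -0.18 and that of all genes -0.01.

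Tcf7 introns gave a similar value. They had 664, 831 and 1043 CPM in conventional and 487, 514 and 741 CPM in elemental libraries, with a log2 fold change of -0.57 ± 0.14 (adjusted p = 0.0148). The ranges overlapped. Among all 7059 genes tested on introns 4.39% were called, and 3.26% had groups apart. Tcf7 was the only member called there, and 0 of 8 lay apart. Without conventional replicate 1 the adjusted p was 0.0533, and with exon library sizes as the scale it was 0.134.

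In elemental libraries the intron share of reads was lower, at 3.33% to 4.08% against 3.97% to 4.61%. With that share as a covariate the Tcf7 exon change was -0.77 (adjusted p = 0.0764). Diet and intron share nearly coincide here. Per 1000 core CPM, Tcf7 ran from 74.4 to 159 in conventional and from 65.6 to 106 in elemental libraries, which overlap. With a spread shared over all 4 groups the adjusted p was 0.737 at the same fold change, in a fit that called 2 genes in all.

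**Figure D4:**
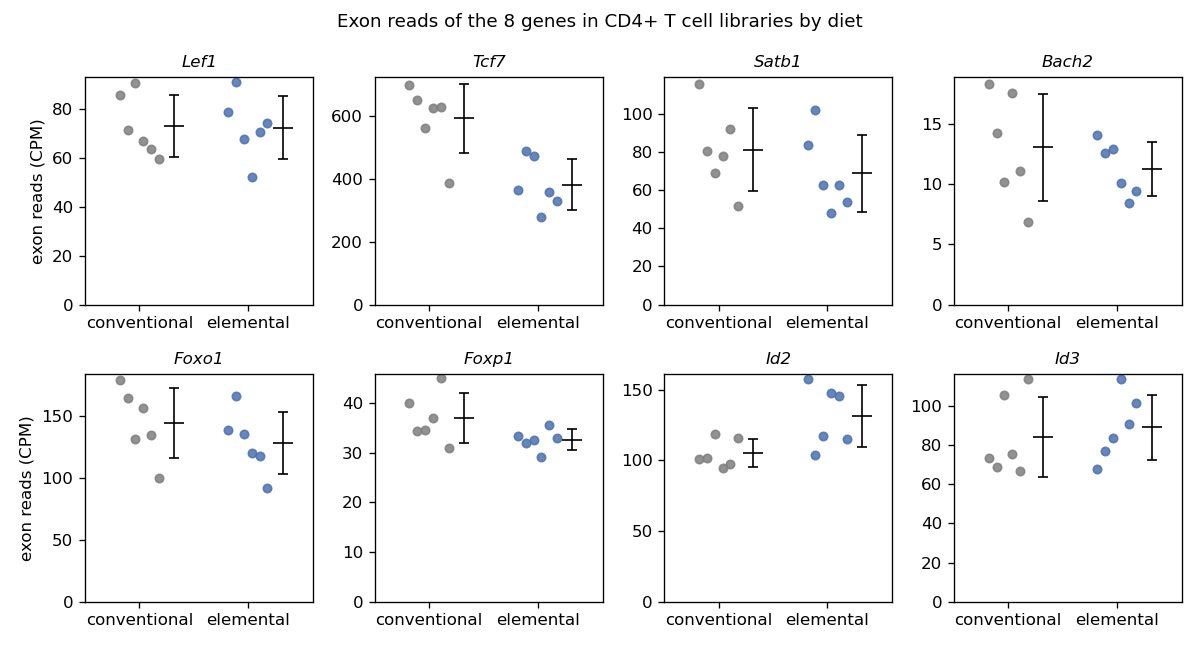
Exon reads (CPM, linear axes from 0) of the 8 genes in CD4+ T cell libraries on the conventional (grey) and elemental (blue) diets; each point is 1 library, with mean ± SD (n = 6 each). Tcf7 ran from 386 to 699 on the conventional and from 277 to 488 on the elemental diet, and the ranges overlap for all 8 genes.

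Lef1, the close relative of Tcf7, was not called by diet. It had 59.5, 69.3 and 90.9 CPM in conventional and 52.2, 72.4 and 91.2 CPM in elemental libraries, and the change was -0.01 ± 0.13 (adjusted p = 0.957). Its 95% interval, -0.29 to 0.27, does not reach the Tcf7 value of -0.63. The difference between the 2 genes' changes was itself not tested.

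Id2 had 94.9, 102 and 119 CPM in conventional and 104, 131 and 158 CPM in elemental libraries. In 5 of 6 elemental libraries it lay above the conventional mean. The change of 0.32 ± 0.11 just missed the threshold (adjusted p = 0.0522). It was called by DESeq2 (0.0364), by limma-voom (0.00972), and in 4 of 12 fits that left out 1 library, which were conventional 3, conventional 6, elemental 2 and elemental 3 (0.0226 to 0.048). Id3 had 66.9, 74.6 and 114 CPM in conventional and 67.7, 87.4 and 114 CPM in elemental libraries, at 0.08 ± 0.15 (0.734).

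The other 4 members were not called by diet. Satb1 had 51.8, 79.4 and 116 CPM in conventional and 47.9, 62.8 and 102 in elemental libraries. On exons the Satb1 change was -0.24 ± 0.20 (adjusted p = 0.419) and on introns 0.35 ± 0.15 (0.221), of opposite sign. Foxp1 was under the conventional mean in 6 of 6 elemental libraries, with 30.9, 35.9 and 45.1 CPM against 29.1, 32.9 and 35.6, at -0.18 ± 0.10 (0.21). Foxo1 had 99.7, 145 and 179 CPM in conventional and 91.7, 128 and 166 in elemental libraries (-0.17 ± 0.15, 0.428). Bach2 had 6.87, 12.6 and 18.3 CPM against 8.42, 11.4 and 14.1 (-0.21 ± 0.22, 0.516), on 113 to 475 exon reads per library. All 4 genes overlapped between the diets.

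FOXO-linked genes had 5 of 12 tested members higher and 1 lower on the elemental diet, where 17.4% of all genes were called (median 0.32, and -0.01 for all genes). Whether that count differs from other genes was not tested. Ccr7, the chemokine receptor of naive cell entry to lymph nodes, rose from 297 ± 32.2 to 428 ± 61.4 CPM (0.53 ± 0.10, adjusted p = 0.00348). Sesn1, a stress-response inhibitor of mTORC1, rose from 43.1 ± 3.08 to 60.4 ± 4.82 CPM (0.49 ± 0.08, 0.00128). S1pr1 rose from 279 ± 23.1 to 356 ± 40.5 CPM (0.35 ± 0.09, 0.0128), and lost the call with library totals as the only scaling (0.0866). Sesn3, another sestrin, fell from 132 ± 30.1 to 85.8 ± 14.4 CPM (-0.62 ± 0.15, 0.0109). Pik3ip1, an inhibitor of PI3K, also rose, by 0.32 ± 0.09 (0.0288), and was picked out once its values were known. S1pr1 was thus higher on the elemental diet and lower in CD44+ cells, in separate libraries.

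In the PI3K and AKT pathway 1 of 12 rose and 2 fell (median -0.24), a share near the 17.4% of all genes and so no result about the pathway. Sgk1, a kinase related to AKT, rose from 22.0 ± 3.23 to 36.3 ± 9.84 CPM (0.72 ± 0.16, adjusted p = 0.00766). Rictor, the mTORC2 subunit, fell from 10.1 ± 3.32 to 5.39 ± 2.09 CPM (-0.91 ± 0.29, 0.0411), and Tsc1, an inhibitor of mTORC1, from 5.68 ± 2.07 to 3.07 ± 0.834 CPM (-0.89 ± 0.29, 0.0451). Rictor was called only when conventional 2, conventional 6, elemental 1 or elemental 2 was left out, and otherwise had 0.0586 to 0.0954. Tsc1 was called only when conventional 3, conventional 6 or elemental 2 was left out, and otherwise had 0.059 to 0.112. Without a filter Tsc1 had 0.0519, with the replicate block 0.0981, and on total gene reads its change was -0.185 (0.54).

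Among partners of Tcf7 and Lef1 1 of 13 rose and 1 fell (median -0.20), again near the 17.4% of all genes. Tle3, a co-repressor of TCF factors, fell from 38.6 ± 9.64 to 24.8 ± 4.23 CPM (-0.64 ± 0.17, adjusted p = 0.0177). Jup, plakoglobin, which epithelial cells carry in their junctions, rose from 3.33 ± 0.672 to 7.39 ± 2.09 CPM (1.15 ± 0.24, 0.00458). Of the 3 E proteins, the targets of ID2 and ID3, 1 fell and 0 rose (median -0.29). Tcf3, which encodes E2A, fell from 48.0 ± 3.32 to 39.4 ± 4.25 CPM (-0.29 ± 0.09, 0.0393). That call held only when conventional 3, conventional 6, elemental 2 or elemental 3 was left out, and otherwise had 0.0574 to 0.0845. Without a filter it had 0.0586, and with the replicate block 0.073. Of 7 paralogs tested 1 rose (median 0.03), which was Tcf7l2 at 0.482 ± 0.308 and 1.83 ± 1.03 CPM, picked out once its values were known.

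Other naive and quiescence regulators had 0 of 15 higher and 3 lower (median -0.22), near the 17.4% of all genes. Myb, a factor of progenitors and stem-like T cells, fell from 11 ± 1.44 to 5.31 ± 0.736 CPM (-1.05 ± 0.16, adjusted p = 0.000565). Ets1 fell from 438 ± 65.4 to 328 ± 30.3 CPM (-0.42 ± 0.10, 0.0123). Zeb1 fell from 8.33 ± 3.32 to 4.85 ± 0.976 CPM (-0.78 ± 0.26, 0.0477), which held only when conventional 3, conventional 6 or elemental 3 was left out and otherwise had 0.0568 to 0.118. On total gene reads neither Myb nor Zeb1 was called, and the changes were smaller, at -0.38 (0.0708) for Myb and -0.14 (0.541) for Zeb1. Without a filter Zeb1 had 0.0507, and with the replicate block 0.0843. Effector transcription factors had 1 of 19 higher and 6 lower (median -0.38), against the same 17.4%, a difference that was not tested. Bcl6, the repressor that defines follicular helper cells, fell by 1.14 ± 0.22 on the log2 scale (0.00383) and Ascl2, which acts early in those cells, by 1.19 ± 0.27 (0.00832). Tox2 fell by 1.0 ± 0.15 (0.000702) and Hif1a, the hypoxia factor, by 0.89 ± 0.17 (0.00341). Of the 17 pathway genes named for diet, 1 was called with the intron share as a covariate (Myb) and 0 with the spread shared over all 4 groups.

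Markers of other cells and states moved with diet beside Tcf7. Cd4 fell from 353 ± 78.6 to 239 ± 45.9 CPM (-0.56 ± 0.16, adjusted p = 0.025) and Cd44 from 138 ± 14.7 to 91.2 ± 17.2 CPM (-0.60 ± 0.12, 0.00339). Cd8b1 rose from 15.8 ± 3.02 to 22.9 ± 5.25 CPM. The other CD8 chain, Cd8a, had a lower mean on the elemental diet (31.9 ± 12.2 and 20.5 ± 8.92 CPM) and was not called. Follicular helper markers fell in 5 of 5 and summed to between 396 and 550 CPM in conventional and between 172 and 309 in elemental libraries. Core T cell genes fell in 3 of 11, with sums of 4330 to 5184 and 4223 to 4855 CPM. Myeloid and dendritic cell markers rose in 9 of 10 (390 to 509 against 665 to 1020 CPM) and epithelial markers in 4 of 10 (66.4 to 901 against 697 to 1525 CPM), with none at 0 in every library of a group. Of all genes tested 17.4% were called by diet, and whether the count in any of these lists differs from that share was not tested. The part of these other cells in the Tcf7 value was not tested either.

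Germinal centre B cell markers fell in 5 of 5, from 79.1 to 157 CPM summed in conventional to 27.7 to 38.5 in elemental libraries. Plasma cell markers fell in 4 of 6 (924 to 1968 against 395 to 867 CPM) and B cell markers in 3 of 10 (346 to 665 against 199 to 457 CPM). Markers of NK, innate lymphoid and gamma-delta T cells had 2 of 5 higher and 1 lower (121 to 202 against 172 to 306 CPM). Mean CPM was higher on the elemental diet for Tyrobp (31.2 to 87.9), Fcer1g (21.9 to 61.9) and Klrd1 (11.8 to 13.8). It was lower for Klrb1c (51.8 to 27.0) and Nkg7 (51.0 to 40.2). Ncr1 (0.306 to 0.735) and Sox13 (0.336 to 0.367) were barely detected. Of the handling stress genes 3 of 10 rose and 1 fell (703 to 1524 against 685 to 2739 CPM). Regulatory T cell markers had 0 of 4 called (161 to 214 against 152 to 247 CPM). These counts too stand beside the 17.4% of all genes called, and a difference from that share was not tested.

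Levels of different genes were compared per kilobase of exon. Tcf7 led in both CD4+ groups, at 225 ± 41.9 CPM per kilobase in conventional and 145 ± 31.3 in elemental libraries, with no overlap with the next gene, Id3 (66.0 ± 16.1 and 69.8 ± 13.1). Id2 was next (43.1 ± 4.08 and 53.8 ± 9.02), overlapping Id3 only in elemental libraries. Lef1 (20.8 ± 3.60 and 20.7 ± 3.67) and Foxo1 (16.6 ± 3.28 and 14.8 ± 2.86) overlapped each other. Satb1 (6.70 ± 1.78 and 5.68 ± 1.68) and Foxp1 (4.09 ± 0.550 and 3.61 ± 0.235) followed, overlapping in conventional libraries. Bach2 was lowest (1.47 ± 0.501 and 1.27 ± 0.255).

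In CD44- libraries Lef1 (158 ± 39.2 CPM per kilobase), Tcf7 (139 ± 71.5) and Id2 (120 ± 55.7) overlapped at the top, apart from the other 5 genes. Those had means between 4.53 for Bach2 and 13.2 for Foxp1, each overlapping its neighbour. In CD44+ libraries Id2 stood alone at 303 ± 77.3. Tcf7 (73.0 ± 31.6), Lef1 (46.1 ± 27.3), Id3 (35.4 ± 63.5), Foxp1 (11.5 ± 3.86) and Foxo1 (10.1 ± 5.08) followed in an overlapping series. Satb1 (3.06 ± 1.32) and Bach2 (2.74 ± 2.09) were lowest and overlapped.

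Genes whose pattern was most like each member were ranked by Pearson r of log2 CPM over the 26 libraries, after centring within each pair of groups, among 8145 genes. Kit and depth differed between the pairs of groups, and summed cell type markers differed between libraries, so r is a description. Tcf7 was nearest to Mbnl1 (r = 0.92), Cd4 (0.86) and Mllt3 (0.84), and to Cd4 at 0.95 within the 12 CD4+ libraries. Lef1 was nearest to Pdlim1 (0.83), Rnf6 (0.82) and Klhl6 (0.82), which had 0.18, 0.25 and 0.36 within the CD4+ libraries. Satb1 was nearest to Hnrnpa3 (0.84), Mgea5 (0.84) and Ltn1 (0.81).

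Id2 was nearest to Tmem176a (0.87), Bcl2a1a (0.86) and Atp6v1f (0.85). Id3 was nearest to Snrpb (0.92), 1110008P14Rik (0.91) and Timm13 (0.90), over a range with 1 library far above the rest. Bach2 was nearest to Stt3b (0.89), Rpusd4 (0.85) and Clp1 (0.85), and the last 2 had r = -0.22 and -0.58 in the CD4+ libraries. Foxo1 was nearest to Syt11 (0.80), Mon1b (0.74) and Supt20 (0.73), and Foxp1 to Pphln1 (0.82), Polk (0.78) and Mrpl38 (0.78). Mrpl38 had r = -0.39 with Foxp1 in the CD4+ libraries.

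Among the members the highest r was that of Lef1 with Satb1, 0.71, and 0.48 when each of the 4 groups was centred on its own mean. Bach2 and Tcf7 had 0.63 and 0.58 on the same 2 scales. Id2 had -0.55 with Lef1 over the 26 libraries and 0.24 with groups centred, of opposite sign. With Tcf7, Id2 had -0.62 and -0.34.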

How the data were processed

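The authors deposited, for each of the 26 libraries, a table of 25814 genes with whole-number counts of exon, intron and total gene reads, per the file headers. Coordinates are on GRCm38, as the submitters' processing notes have it. Which aligner and counter were used is not given in the sources used here. Counts of total exon reads were tested, and the deposited TPM and RPKM columns were not used. In 3759 genes the exon length was 0.

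Each comparison was fitted on its own pair of groups in R 4.3.3. Genes passing edgeR 4.0.16's filterByExpr were scaled by TMM and tested two-sided with its robust quasi-likelihood test, Benjamini-Hochberg adjusted over all genes tested and called under 0.05. The SE is the log2 fold change over the square root of F. Positive means higher in CD44+ cells or on the elemental diet. Intron counts were tested the same way with their own scaling. CPM and r used Python 3.11.15, numpy 2.4.6 and pandas 2.3.3, and figures matplotlib 3.10.9. Log2 CPM had a prior count of 2. The test was checked on simulated counts with a fixed spread that was not taken from these libraries, so the check does not cover the spread seen here. In 72 pairs of libraries within groups 0 were identical, and their chi-square over its degrees of freedom was at least 11.9 over genes holding 20 reads or more between them. Counts per library limit precision, as the report gives.

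Alternatives were DESeq2 1.42.0, limma 3.58.1 voom with quality weights, RLE factors, library totals, no filter, other read classes, a shared spread over 4 groups, a replicate block, the intron share as a covariate and leaving out each library. The members and gene lists were chosen with earlier results of these data known. The text names all 8 members, the sort markers, the 3 genes most like each member, and from each pathway list up to 4 called genes per comparison with the largest change and a mean log2 CPM of at least 2. A result that this rule would name is not reported here. Promoter windows are RefSeq's, GRCm38.p6, and all 8 members matched.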

Additional observations from a re-analysis of the deposited data

Results flagged for a closer look

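Of 60 groups of libraries examined (8 genes on exon reads, 7 on intron reads, 4 groups each), 7 held a library far from the others by Dixon's criterion, which chance meets in about 1 in 20 groups. Each was the highest of its group. On exon reads these were Id3 in CD44+ replicate 8 at 227 CPM (next 38.2), Id3 in CD44- replicate 2 at 60.6 CPM (next 19.1), and Foxp1 in CD44+ replicate 6 at 180 CPM (next 103). On intron reads, Lef1 stood at 2267 CPM in CD44- replicate 7 (next 1397) and Foxo1 at 1245 CPM in CD44- replicate 6 (next 376). Bach2 introns stood at 1073 CPM in conventional replicate 6 (next 866), and Id2 introns at 65.6 CPM in CD44+ replicate 5 (next 30.6).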

How the results depend on the processing

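No value changed sign among those called. In CD44+ against CD44- cells 64 genes were called, 401 with DESeq2, 101 on total gene reads, 1748 with a spread shared over all 4 groups, 37 with the replicate block, 30 with the intron share as a covariate, and 36 to 87 without 1 library. The 2 members called became 1 with RLE factors, 0 without a filter, 3 on total gene reads (Satb1 added, -1.86, adjusted p 0.011), 4 with the shared spread (Tcf7 and Satb1 added), 0 with the intron share, and 0 to 2 without 1 library. The 2 members called on introns became 1 with the replicate block (Satb1 at an adjusted p of 0.0751), 1 on unique intron reads, 0 scaled by exon library sizes, 4 with DESeq2 (Bach2 and Foxp1 added), and 1 to 2 without 1 library. By diet 2081 genes were called, 4095 with voom, 2 with the shared spread, 335 with the intron share, and 1299 to 3865 without 1 library (conventional replicate 4 gave 1299, elemental replicate 4 gave 1316 and conventional replicate 6 gave 3865). The 1 member called became 2 with DESeq2 and 2 with voom (Id2 added), 0 with the shared spread, 0 with the intron share, and 1 to 2 without 1 library. On introns it became 0 scaled by exon library sizes and 0 to 1 without 1 library. Library totals as the only scaling moved the median of all genes by diet from -0.01 to -0.13 and the share of higher calls from 55.6% to 45.0%, and Tcf7 stayed called. The cause of these differences was not tested.

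Same-numbered libraries correlated at -0.04 to 0.12 (CD44) and -0.14 to 0.27 (diet) in their deviations from the group means. Both CD44 groups carry the replicate numbers 1, 2, 4, 5, 6, 7 and 8. The labels do not say whether same-numbered libraries came from the same mice, and low r values cannot exclude it. With the replicate block 2 members were called for CD44, and 1 on exons and 1 on introns by diet among 2033 genes called. Under the block S1pr1 (0.146) and Ets1 (0.175) were not called for CD44, nor Tcf3 (0.073), Tsc1 (0.0981) and Zeb1 (0.0843) by diet. The intron alternatives on unique reads, exon library sizes, voom and DESeq2 were chosen after seeing the data.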

Other observations

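Ratios of related members are given as values without a test. Lef1 over Tcf7, per length, had a median of 1.26 in CD44- (0.73 to 2.15) and 0.794 in CD44+ libraries (0.0988 to 1.5), and of 0.0872 in conventional (0.0758 to 0.121) and 0.144 in elemental libraries (0.108 to 0.168). Id2 over Id3, per length, had a median of 16.3 in CD44- (1.63 to 145) and 22.6 in CD44+ libraries (2.36 to 111). It was 0.69 in conventional (0.532 to 0.777) and 0.717 in elemental libraries (0.594 to 1.22). Within each pair of groups the ranges of both ratios overlapped. Kit and cell population cannot be told apart between the 2 pairs of groups.

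Bach2 counts were mostly intronic in every group, with introns at 73.6% to 98.2% of its gene reads in CD44- and 59.4% to 88.3% in conventional libraries. Its exon-exon junction reads numbered 0 to 22 per CD44- library and 0 to 3 per CD44+ library, so its exon level rests on few spliced reads. For Satb1 they numbered 0 to 26 and 0 to 25.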
